A study of Mus musculus with 12 samples.

Results

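The 9 genes described here, Tpm1, Tpm2, Tpm3, Tpm4, Actn1, Cnn2, Pdlim3, Phactr1 and Capn6, encode the tropomyosins and a set of other cytoskeletal proteins, most of them linked to actin. They were picked by name from 54393 genes of an expression table, and by the same names from a table of 401633 splicing events, with the effect of a knockdown on them in view. The knockdown values below are therefore a description and support nothing. The gene Sap30bp was knocked down in N2a, a neuroblastoma line of the mouse. Its product, the SAP30-binding protein, is known as a partner of a histone deacetylase complex and as a splicing factor.

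Both N2a Flp-In rtTA lines carried a doxycycline-inducible cDNA for FLAG-tagged Sap30bp. In the Sap_mEx3 line this cDNA was without exon 3 of Sap30bp, and in the Sap_pEx3 line it held that exon. In each line, rescue cells received the Sap30bp siRNA and doxycycline, knockdown cells the Sap30bp siRNA alone, and control cells a non-targeting siRNA pool without doxycycline. Medium was changed 24 h after transfection, and the cells of all matching wells were combined at harvest at 72 h. Each of the 6 groups had 2 biological replicates, so 12 polyA libraries in all. No group combined the control siRNA with doxycycline, so doxycycline and the cDNA cannot be told apart, nor can the isoform and the line that carries it. The sources used here do not say whether a line is 1 clone.

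In the authors' deposited table, Sap30bp stood at 196 RPKM (reads scaled by transcript length and library size) in rescue, 21.7 in knockdown and 40.0 in control cells of the Sap_mEx3 line. In the Sap_pEx3 line the same table has 141 RPKM in rescue, 18.6 in knockdown and 33.6 in control. Of 13 genes typical of neuroblastoma and neurons, 11 reached 1 RPKM or more, with summed levels of 987 to 1270 RPKM over the groups. Of 10 skeletal and cardiac muscle markers, 4 averaged 1 RPKM or more. Among these, Myh3 had 21.9 to 30.5 RPKM and Tnnt2 had 2.01 to 16.2 RPKM over the groups. The muscle regulators Myod1 and Myog and the giant sarcomere protein gene Ttn, of the same list, were at 0 in every group. No read numbers are given in the files used, so the depth is unknown; each library had an inclusion value for 182904 to 207284 events.

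Tropomyosins are coiled-coil dimers that lie end to end along actin filaments and set which myosins and other actin-binding proteins reach them. Mammals have a handful of tropomyosin genes, and each gives many products through alternative starts, alternative internal exons and alternative ends. One such choice is exon 6, where a transcript takes either the upstream copy, 6a, or the downstream copy, 6b, and each copy encodes the same stretch of the coiled coil in a different version. In rat Tpm2 the downstream copy is known as the one used in skeletal muscle and the upstream copy as the one of smooth muscle and fibroblasts. The α-actinin Actn1 cross-links actin filaments and makes a similar choice in its calcium-binding region, between an exon of the non-muscle form (NM) and one of the smooth muscle form (SM).

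The exon pairs are shown because they carry the splicing results below, read from the GENCODE M21 transcripts (GRCm38), where the pair and both neighbouring exon edges could be placed by 1 shift only. Capitals mark the bases at which the 2 exons 6 of a gene differ. The Tpm1 exons lie on the minus strand at chr9:67032466-67032541 (6a) and chr9:67031951-67032026 (6b), which the inclusion table gives as chr9:66880273-66880348 and chr9:66879758-66879833 in mm9. The Tpm2 exons lie on the minus strand at chr4:43519003-43519078 (6a) and chr4:43518644-43518719 (6b).
Tpm1 exon 6a: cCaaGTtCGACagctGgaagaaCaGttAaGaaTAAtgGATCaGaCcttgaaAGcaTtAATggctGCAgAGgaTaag
Tpm1 exon 6b: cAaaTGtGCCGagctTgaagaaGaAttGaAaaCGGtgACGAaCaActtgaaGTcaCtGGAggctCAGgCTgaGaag
Tpm2 exon 6a: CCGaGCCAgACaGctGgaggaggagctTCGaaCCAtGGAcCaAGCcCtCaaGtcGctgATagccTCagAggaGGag
Tpm2 exon 6b: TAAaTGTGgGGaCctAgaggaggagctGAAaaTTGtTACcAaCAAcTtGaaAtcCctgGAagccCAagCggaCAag

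All 4 exons are internal and 76 nt long. The Tpm1 pair had 43 of 76 bases in common (56.6%) and the Tpm2 pair 41 (53.9%). Across the genes the downstream copies were closer to each other, with 56 of 76 bases in common (73.7%), than the upstream copies, with 49 (64.5%).

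The Actn1 exons lie on the minus strand at chr12:80170686-80170766 (NM, 81 nt) and chr12:80170183-80170248 (SM, 66 nt) in GRCm38, both lengths a multiple of 3, and differ in length, so no base is set against another.
Actn1 NM exon: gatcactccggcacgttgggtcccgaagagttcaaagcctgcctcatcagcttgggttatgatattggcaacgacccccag
Actn1 SM exon: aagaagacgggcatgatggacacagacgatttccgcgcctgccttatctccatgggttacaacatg

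Of the tested exons of the 9 genes, Tpm1 exons 6a and 6b had the widest spans of group means, at 26.9 and 26.7 percentage points. In the Sap_mEx3 line, exon 6a was included in 40.9% and 47.4% of Tpm1 transcripts in the rescue libraries, in 46.3% and 58.7% in knockdown, and in 25.2% and 34.4% in control. Libraries of the Sap_pEx3 line had exon 6a inclusion of 47.6% and 52.7% in rescue, 54.0% and 59.5% in knockdown, and 33.8% and 35.7% in control. All 4 rescue and all 4 knockdown libraries lay above all 4 control libraries, while rescue and knockdown overlapped in the Sap_mEx3 line and did not in the Sap_pEx3 line. Replicate 2 was higher than replicate 1 in every group. Within a replicate number, rescue lay below knockdown in both lines, but the labels do not say that the number marks a shared batch.

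Exon 6b ran the other way. Its inclusion was 59.1% and 53.0% in rescue, 54.7% and 46.2% in knockdown, and 77.3% and 66.4% in control libraries of the Sap_mEx3 line. The Sap_pEx3 line had 53.4% and 51.4% in rescue, 46.9% and 43.3% in knockdown, and 69.0% and 66.1% in control. The 6a and 6b percentages of a library added up to 100% to 105%, with a median of 101%, so they are 2 readings of 1 choice and not independent results. Control cells thus used mostly 6b, and knockdown cells used each copy in 45.1% to 56.7% of transcripts on average.

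**Figure D1:**
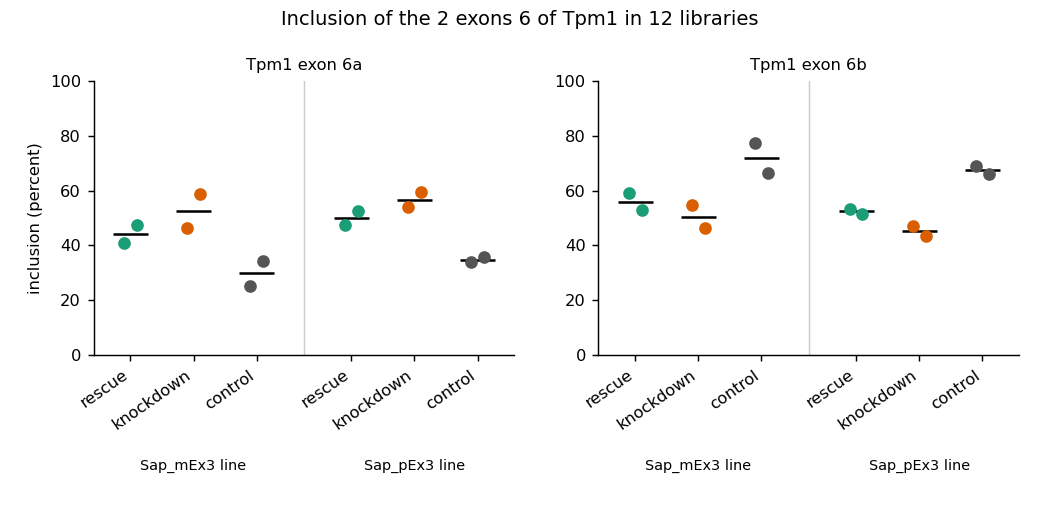
Inclusion of Tpm1 exon 6a (left) and exon 6b (right) in percent of transcripts, on the y axis, in each of the 12 libraries, with rescue, knockdown and control of the Sap_mEx3 and the Sap_pEx3 line on the x axis. Points are libraries and bars the mean of 2. Exon 6a sits at 25.2% to 35.7% in the control libraries and at 40.9% or more in all others, and exon 6b mirrors it.

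A linear model (limma) was fitted to the percentages of 28980 events with a value in all 12 libraries, and an event was called at an adjusted p under 0.05 and a difference of at least 15 percentage points. Of the 162 entries of the 9 genes, 134 had a value in some library and 13 entered the test; of the others with all 12 values, 51 averaged under 2% and 50 over 98%. The 13 were 4 of Tpm1, 3 of Tpm2, 1 each of Tpm3 and Tpm4, and 2 each of Pdlim3 and Actn1. Phactr1, Capn6 and Cnn2 had none, so their splicing is not tested here. In knockdown against control, averaged over both lines, Tpm1 exon 6a was 22.4 points higher (SE 3.80) and exon 6b differed by -21.9 points (SE 3.40), and both met the call rule, as did 1.48% of all events tested. In neither line alone did limma call a member event in this contrast, beside 0.0207% of all events in the Sap_mEx3 line and 0.338% in the Sap_pEx3 line. The authors' deposited table of splicing calls does call both exons in each line alone, at 22.06 and 21.89 points for 6a and -20.81 and -22.38 points for 6b in the Sap_mEx3 and the Sap_pEx3 line. These genes were chosen with that contrast in view, so nothing is read from this.

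At this exon pair the rescue means lay between those of knockdown and control in both lines. Against knockdown, exon 6a inclusion averaged 44.1% ± 4.57 in rescue and 52.5% ± 8.72 in knockdown cells of the Sap_mEx3 line (SD, n = 2 each), a difference of -8.38 points (SE 5.37, limma adjusted p = 0.735). In the Sap_pEx3 line the averages were 50.1% ± 3.62 in rescue and 56.7% ± 3.88 in knockdown (SD, n = 2 each), a difference of -6.62 points (SE 5.37, limma adjusted p = 0.904). Exon 6b differed by 5.59 points and by 7.27 points (SE 4.81 each) between rescue and knockdown in the Sap_mEx3 and the Sap_pEx3 line, with limma adjusted p = 0.821 and 0.840. Measured on the mean percentages, 36.9% of the knockdown difference of exon 6a was absent in rescue in the Sap_mEx3 line and 30.0% in the Sap_pEx3 line. For exon 6b these shares were 26.1% and 32.4%, so the order of the lines was not the same for the 2 exons. The knockdown libraries enter both sides of these shares.

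Against control, exon 6a was 14.3 points higher in Sap_mEx3 rescue cells and 15.4 points higher in Sap_pEx3 rescue cells (SE 5.37 each), with limma adjusted p = 0.840 and 0.493. Exon 6b differed by -15.8 and -15.1 points (SE 4.81 each), with limma adjusted p = 0.770 and 0.456. Averaged over both lines, an addition made after the data were seen, the difference was 14.9 points for 6a (SE 3.80, limma adjusted p = 0.269) and -15.5 points for 6b (SE 3.40, limma adjusted p = 0.216). The unadjusted p-values of these averages were 0.00243 and 0.000828, and 8.78% of all events had one under 0.05 in this contrast. Rescue and knockdown are set against the same control libraries. In the authors' deposited table of splicing calls, exon 6b was called for rescue against control in both lines (-15.56 and -15.15 points), and exon 6a in the Sap_pEx3 line only (15.29 points). The same table did not call rescue against knockdown for either exon in either line.

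Across the 6 contrasts fixed besides the knockdown, namely rescue against knockdown and rescue against control in each line, the difference of the rescue between the lines and the controls of the lines, limma called none of the 13 events. Among all events tested the same rule called 0.00345% for rescue against knockdown in the Sap_mEx3 line and 0.0% in the Sap_pEx3 line. It called 0.00345% for rescue against control in the Sap_mEx3 line and 0.0% in the Sap_pEx3 line. For the difference between the lines it called 0.00345%, and between the controls of the lines 0.0%. Averaged over both lines it called 0.0104% for rescue against knockdown and 0.0069% for rescue against control, again with none of the 13. Unadjusted p-values under 0.05 were held by 1 and 0 of the 13 for rescue against knockdown (Sap_mEx3, Sap_pEx3 line), by 3 and 2 for rescue against control, by 1 for the difference of the rescue between the lines and by 2 between the controls. Over all events tested, the share with such a p was 8.57% and 6.84% for rescue against knockdown, 5.58% and 8.39% for rescue against control, 5.27% for the difference between the lines and 4.24% between the controls. With 2 libraries a group, events moved by a median of 2.05 to 2.69 points between replicates, and so few calls over all events mean that a count of 0 among 13 says little about the members.

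The lowest adjusted p among the 13 in rescue against knockdown belonged to an intron of Tpm1 of 1496 nt, at chr9:66875975-66877470 in mm9. Its retention was 48.6% and 68.0% in rescue, 97.0% and 85.7% in knockdown and 89.1% and 71.0% in control libraries of the Sap_mEx3 line. In the Sap_pEx3 line it was 68.9% and 88.7% in rescue, 85.7% and 84.6% in knockdown, and 61.7% and 63.3% in control. The Sap_mEx3 rescue libraries were thus the lowest of their line, and the Sap_pEx3 rescue libraries were above their controls. Rescue minus knockdown was -33.1 points in the Sap_mEx3 line (SE 7.85, limma adjusted p = 0.257) and -6.38 points in the Sap_pEx3 line (SE 7.85, limma adjusted p = 0.946), and the difference between the lines was -26.7 points (SE 11.1, limma adjusted p = 0.933). The authors' deposited table of splicing calls has the Sap_mEx3 difference as a call (-31.74 points), and also calls this intron for rescue cells of the Sap_pEx3 against the Sap_mEx3 line (19.75 points) and for knockdown against control in the Sap_pEx3 line (21.98 points). The intron borders a 79-nt exon that was included in 0.97% to 4.34% of transcripts in the 11 libraries with a value, so its retention describes a small part of the Tpm1 RNA. The fourth tested event of Tpm1, a 767-nt intron directly upstream of exon 6b that holds exon 6a, was retained in 2.44% to 9.0% of transcripts.

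Tpm2 made the exon 6 choice almost wholly in 1 direction. Exon 6b was included in 95.3% and 97.3% of Tpm2 transcripts in rescue, 98.8% and 97.2% in knockdown, and 99.6% and 97.9% in control libraries of the Sap_mEx3 line. In the Sap_pEx3 line its inclusion was 94.0% and 92.9% in rescue, 96.7% and 96.8% in knockdown, and 92.8% and 94.4% in control. These cells thus used the Tpm2 copy that is known from rat skeletal muscle, while of 10 skeletal and cardiac muscle markers 4 reached 1 RPKM, with summed levels of 33.2 to 44.4 RPKM over the groups, most of it the embryonic myosin gene Myh3 (21.9 to 30.5 RPKM), in the authors' deposited table. Between the control cells, exon 6b was 5.12 points higher in the Sap_mEx3 line than in the Sap_pEx3 line (SE 1.71, unadjusted p = 0.0120, limma adjusted p = 1.0), which did not pass the test.

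The other tested events of Tpm2 and the tested event of Tpm3 were near an extreme. An alternative 3′ splice site of Tpm2 was used in 93.4% to 96.8% of transcripts and a 102-nt intron of Tpm2 was retained in 0.0% to 3.65%. A 79-nt exon of Tpm3 was included in 91.1% to 98.9%. A 5′ splice site of Tpm4 that lengthens its exon by 467 nt was used in 16.48% and 16.49% of transcripts in rescue, 3.28% and 18.2% in knockdown, and 4.11% and 9.33% in control libraries of the Sap_mEx3 line. The Sap_pEx3 libraries used the Tpm4 site in 2.0% and 10.7% in rescue, 4.03% and 13.8% in knockdown, and 2.41% and 5.47% in control. The replicates of the Sap_mEx3 knockdown lay further apart at this site than any pair of group means (12.5 points), so no order of the groups can be read from it.

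Actn1 used mostly its NM exon, and the SM exon was rarest in knockdown. The SM exon was included in 10.8% and 7.71% of transcripts in rescue, 6.93% and 5.08% in knockdown, and 18.2% and 10.1% in control libraries of the Sap_mEx3 line. In the Sap_pEx3 line the SM exon was included in 11.9% and 6.53% in rescue, 6.97% and 3.43% in knockdown, and 15.2% and 16.2% in control. All 4 knockdown libraries lay below all 4 controls, and in each line the mean of rescue lay between knockdown and control, with overlaps. Within a replicate number, rescue lay above knockdown and below control in both lines. Rescue minus knockdown was 3.27 points in the Sap_mEx3 line and 4.03 points in the Sap_pEx3 line (SE 3.29 each, limma adjusted p = 0.854 and 0.905). The NM exon was included in 90.1% to 99.3% of transcripts in all libraries. The SM and NM percentages of a library added up to 100.25% to 115.65%, with a median of 105.62%. By these values the Actn1 pair was less strictly a choice of 1 exon than the Tpm1 pair. Of Pdlim3, the 2 tested events were introns of 6472 and 2198 nt; the wider of them over the groups, the longer one, was retained in 1.29% to 4.60% of transcripts.

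**Figure D2:**
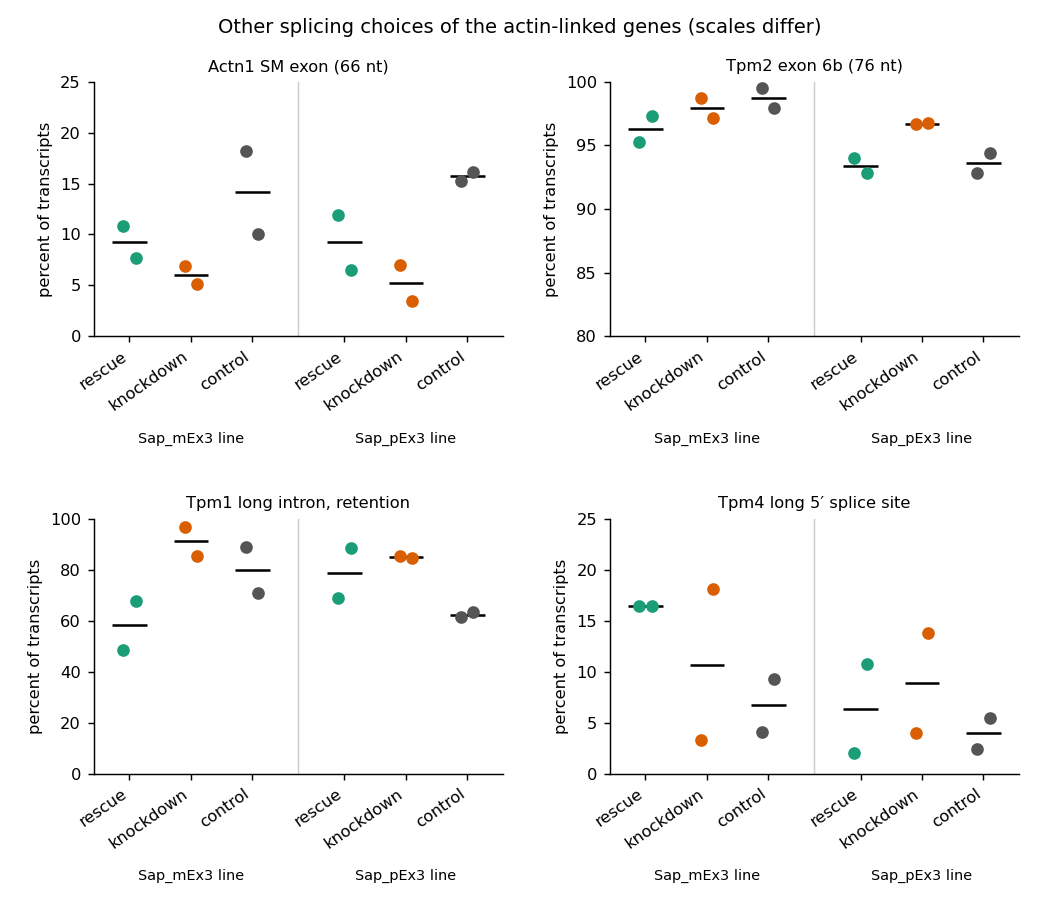
Percent of transcripts, on the y axis, with the Actn1 SM exon, Tpm2 exon 6b, the retained 1496-nt Tpm1 intron and the long Tpm4 5′ splice site in each library, with the groups of both lines on the x axis; points are libraries, bars the mean of 2, and the y scales differ. The SM exon is at 6.97% or less in the 4 knockdown libraries and at 10.1% or more in the 4 controls, while the Tpm4 site differs between replicates as much as between groups.

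The expression table holds 1 RPKM value per group and the authors' own fold changes and false discovery rates (FDR), so no spread between replicates can be given for a level. RPKM is per length of transcript, so levels can be set side by side between genes. In these bulk samples fewer cells that express a gene and less RNA per cell cannot be told apart.

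Tpm4 and Tpm3 were the main tropomyosins. By the authors' deposited table, Tpm4 stood at 280.3 RPKM in rescue, 231 in knockdown and 225 in control cells of the Sap_mEx3 line, and at 347 in rescue, 329 in knockdown and 300.3 in control cells of the Sap_pEx3 line. Tpm3 had 189, 167 and 157 RPKM in rescue, knockdown and control of the Sap_mEx3 line, and 224, 231 and 187 RPKM in those of the Sap_pEx3 line, in the authors' deposited table. Tpm1 had 86.9 RPKM in rescue, 83.7 in knockdown and 72.8 in control of the Sap_mEx3 line, and 155 in rescue, 156 in knockdown and 104 in control of the Sap_pEx3 line, in the authors' deposited table. Tpm2 was the lowest, with 36.7 RPKM in rescue, 26.5 in knockdown and 34.0 in control of the Sap_mEx3 line, and 34.8 in rescue, 31.1 in knockdown and 45.6 in control of the Sap_pEx3 line, in the authors' deposited table. Of the summed tropomyosin RPKM, Tpm4 made up 44.1% to 47.3%, Tpm3 29.3% to 32.9%, Tpm1 14.7% to 20.9% and Tpm2 4.16% to 7.16%, an order that was the same in all 6 groups. Within a line, no tropomyosin gene passed an FDR of 0.05 for rescue against knockdown, rescue against control or knockdown against control in the authors' deposited table.

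Actn1 had 68.8 RPKM in rescue, 64.0 in knockdown and 78.5 in control cells of the Sap_mEx3 line, and 50.5, 50.4 and 52.0 RPKM in those of the Sap_pEx3 line, in the authors' deposited table. Cnn2, the calponin of non-muscle and smooth muscle cells, had 72.4 RPKM in rescue, 58.7 in knockdown and 69.8 in control of the Sap_mEx3 line, and 81.1 in rescue, 79.8 in knockdown and 117 in control of the Sap_pEx3 line, in the authors' deposited table. Neither gene passed the test in any of the 3 comparisons within a line.

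**Figure D3:**
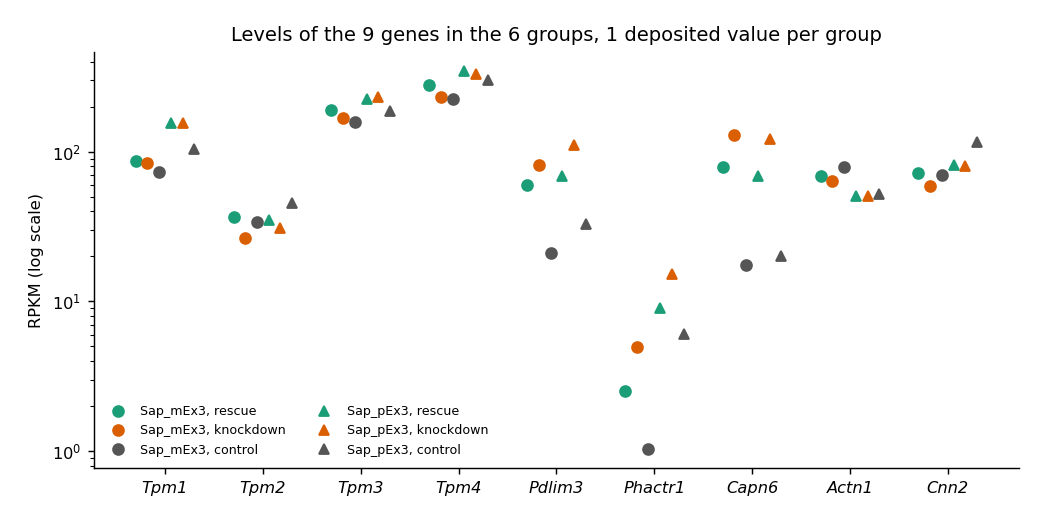
Deposited RPKM of the 9 genes (log scale, y axis), 1 value per group without a spread, for rescue, knockdown and control of the Sap_mEx3 line (circles) and the Sap_pEx3 line (triangles), with the genes on the x axis. Pdlim3, Phactr1 and Capn6 are lowest in control and highest in knockdown in both lines, and the other 6 genes vary less between the groups of a line.

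Pdlim3, Phactr1 and Capn6 were the members whose levels varied most between the groups of a line. Pdlim3 encodes the actinin-associated LIM protein, which binds α-actinin at the Z-discs of muscle. Its level was 60.0 RPKM in rescue, 82.2 in knockdown and 21.1 in control cells of the Sap_mEx3 line, and 69.2 in rescue, 110 in knockdown and 33.0 in control of the Sap_pEx3 line, in the authors' deposited table. Capn6 encodes a calpain that lacks the active-site cysteine and is known to stabilise microtubules. It had 79.7 RPKM in rescue, 129 in knockdown and 17.6 in control cells of the Sap_mEx3 line, and 69.2 in rescue, 122 in knockdown and 20.1 in control of the Sap_pEx3 line, in the authors' deposited table. Phactr1 encodes a protein that binds actin monomers and protein phosphatase 1. It had 2.53 RPKM in rescue, 4.97 in knockdown and 1.03 in control cells of the Sap_mEx3 line, and 9.10 in rescue, 15.4 in knockdown and 6.02 in control of the Sap_pEx3 line, in the authors' deposited table. Each of the 3 was highest in knockdown, lower in rescue and lowest in control in both lines. The choice of genes by knockdown against control by itself favours a highest value in knockdown, so this order is a description.

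In knockdown against control, the contrast behind the choice of genes, these 3 of the 9 passed an FDR of 0.05 upwards in each line in the authors' deposited table, as did 2.26% of all genes in either direction in the Sap_mEx3 and 3.68% in the Sap_pEx3 line. The log2 fold changes were 1.98 and 1.74 for Pdlim3, 2.88 and 2.60 for Capn6, and 2.40 and 1.35 for Phactr1 in the Sap_mEx3 and the Sap_pEx3 line, in the authors' deposited table.

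In rescue against control, Pdlim3 and Capn6 were still higher in both lines. The authors' deposited table gives Pdlim3 a log2 fold change of 1.39 in the Sap_mEx3 line (FDR 1.63e-05) and 1.04 in the Sap_pEx3 line (FDR 0.00286). It gives Capn6 2.11 (FDR 0.00180) and 1.77 (FDR 0.00984) in the same lines. Phactr1 did not pass, with 1.26 (FDR 0.0514) and 0.56 (FDR 0.593) in the authors' deposited table. The 2 of 9 members that passed in each line stand beside 0.924% of all genes in the Sap_mEx3 and 2.27% in the Sap_pEx3 line. The control libraries are those of the knockdown comparison that the genes were chosen on, so these counts are not independent of the choice. The median log2 fold change of the 9 was 0.25 and 0.21 in the Sap_mEx3 and the Sap_pEx3 line, beside -0.04 and -0.01 over all genes tested.

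In rescue against knockdown, none of the 9 passed an FDR of 0.05 by the authors' deposited table in the Sap_mEx3 or the Sap_pEx3 line, where 0.0232% of all genes passed in the Sap_mEx3 and 0.00464% in the Sap_pEx3 line. The log2 fold changes were all negative for the 3 genes: -0.59 and -0.69 for Pdlim3, -0.78 and -0.83 for Capn6, and -1.14 and -0.78 for Phactr1 in the Sap_mEx3 and the Sap_pEx3 line, in the authors' deposited table. Their FDR was 0.395 or higher, with unadjusted p under 0.05 for Pdlim3 and Phactr1 in both lines (0.0157 and 0.00454, and 0.000843 and 0.0167, in the authors' deposited table). Of all 21541 genes tested, 1289 in the Sap_mEx3 and 286 in the Sap_pEx3 line had such an unadjusted p. The knockdown libraries are those of the comparison that the genes were chosen on, so these p-values are not independent of the choice. As shares of the knockdown log2 fold change in the authors' deposited table, the part absent in rescue was 29.9% and 40.0% for Pdlim3, 26.9% and 31.9% for Capn6, and 47.5% and 58.1% for Phactr1 in the Sap_mEx3 and the Sap_pEx3 line. The knockdown libraries enter both sides of these shares too. Whether the rescue of a gene's level differed between the lines was not tested.

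**Figure D4:**
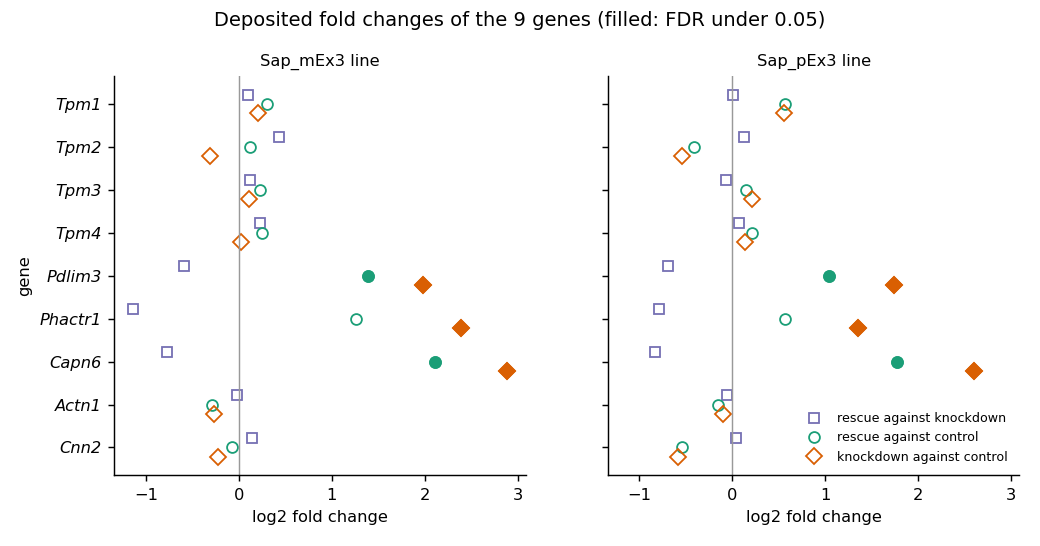
The authors' log2 fold changes (x axis) of the 9 genes (y axis) in the Sap_mEx3 (left) and the Sap_pEx3 line (right), for rescue against knockdown (squares), rescue against control (circles) and knockdown against control (diamonds), filled where the FDR is under 0.05. Pdlim3 and Capn6 are filled for rescue against control and for knockdown against control in both lines, and no square is filled.

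The 2 lines differed from each other in some members in every condition. This comparison reuses the libraries of the knockdown contrast, whose results were known when the genes were chosen. Phactr1 was higher in the Sap_pEx3 than in the Sap_mEx3 line in rescue (log2 fold change 1.72, FDR 8.09e-05), knockdown (1.36, FDR 0.00316) and control (2.41, FDR 7.47e-09), in the authors' deposited table. Tpm1 was higher in the Sap_pEx3 line in rescue (0.94, FDR 0.00666) and knockdown (1.03, FDR 0.00228), with 0.68 in control (FDR 0.104), in the authors' deposited table. Actn1 had the other sign, with -0.55 in rescue (FDR 0.197), -0.51 in knockdown (FDR 0.280) and -0.68 in control (FDR 0.0596) in the authors' deposited table, and passed in control once p-values were adjusted over genes of at least 1 RPKM (0.0478). That made 2, 2 and 1 of the 9 members in rescue, knockdown and control, beside 3.29%, 2.9% and 3.73% of all genes. Levels of Acta2, the smooth muscle actin gene, were 93.9, 92.4 and 40.9 RPKM in rescue, knockdown and control of the Sap_pEx3 line and 8.50, 7.17 and 1.07 RPKM in those of the Sap_mEx3 line, in the authors' deposited table. The smooth muscle marker list summed to 51.1 to 103 RPKM over the groups of the Sap_pEx3 line and 9.39 to 14.96 RPKM over those of the Sap_mEx3 line, with 3 of 6 markers at 1 RPKM or more and its defining markers Myh11 and Cnn1 at 0.17 RPKM or less. The fibroblast list summed to 110 to 178 RPKM over the groups of the Sap_pEx3 line and 31.7 to 40.9 RPKM over those of the Sap_mEx3 line, mostly as Fn1, with 2 of 10 markers at 1 RPKM or more and Col3a1 listed at 0. The part of either list in the Tpm1 and Phactr1 differences was not tested.

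Of 64 further genes of the actin cytoskeleton, among them the actins, troponins, myosin II subunits and other calponins, actinins, PDZ-LIM proteins and calpains, 58 were tested in the authors' deposited table. In rescue against control, Actg2 and Myl9 were higher in the Sap_mEx3 line and none passed in the Sap_pEx3 line. Of all genes, 0.924% and 2.27% passed there. In rescue against knockdown none passed in either line, beside 0.0232% and 0.00464% of all genes. In knockdown against control, 2 were higher and 0 lower in the Sap_mEx3 line (Actc1 and Actg2), and 1 was higher (Actc1) and 1 lower (Phactr2) in the Sap_pEx3 line. These 2 of 58 in each line stand beside 2.26% and 3.68% of all genes, in either direction. The median log2 fold change of the 58 in knockdown against control was 0.06 and -0.07 in the Sap_mEx3 and the Sap_pEx3 line, beside 0.00 over all genes tested in each line. Actc1, the cardiac muscle actin gene, had 1.38 RPKM in rescue, 1.63 in knockdown and 0.23 in control of the Sap_mEx3 line, and 0.87, 3.45 and 0.22 RPKM in those of the Sap_pEx3 line, in the authors' deposited table. Actg2, the enteric smooth muscle actin gene, had 46.0, 32.5 and 16.4 RPKM in rescue, knockdown and control of the Sap_mEx3 line, and 132, 134 and 95.9 RPKM in those of the Sap_pEx3 line, in the authors' deposited table. Myl9, a regulatory light chain of myosin II, had 23.4, 14.4 and 3.13 RPKM in rescue, knockdown and control of the Sap_mEx3 line, and 38.7, 32.4 and 17.5 RPKM in those of the Sap_pEx3 line, in the authors' deposited table. Actc1 thus shared the order of Pdlim3 and Capn6 in both lines, while Actg2 was highest in rescue in the Sap_mEx3 line and Myl9 in both lines. The levels of Actc1 were low, at 3.45 RPKM or less. It is named for its call in knockdown against control, so that part of its order is not independent of the naming.

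Between the lines, 3, 4 and 7 of the 58 were higher in the Sap_pEx3 line in rescue, knockdown and control, and 0 were lower. Of all 21541 genes tested, 334 were higher and 374 lower in rescue, 339 higher and 285 lower in knockdown, and 392 higher and 411 lower in control. The 7 in control were Acta2, Actg2, Cald1, Myl9, Phactr2, Tnni1 and Tnnt2, and among them Acta2 had a log2 fold change of 5.17 (FDR 0.000148) and Tnnt2, cardiac troponin T, one of 3.21 (FDR 7.7e-08), in the authors' deposited table.

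Among 9895 genes with a mean of at least 5 RPKM, the pattern of Capn6 over the 6 groups was nearest to that of Pdlim3, at a distance of 1.06 between centred log2(RPKM + 1) values, followed by Mir1191b (1.12) and Lix1 (1.35). Lix1 was also among the 3 nearest to Pdlim3 (0.66), with Snord53 (0.65) and Snord70 (0.79). Nearest to Phactr1 were Gm28196 (0.75), Mir145a (0.77) and Soat1 (0.81), and nearest to Tpm2 were Ift140 (0.08), Abhd14a (0.09) and Cyren (0.10). The distance is small for genes that vary little, as Tpm2 does, and these are descriptions over 6 group values. Those values include the knockdown and control groups that Capn6 and Pdlim3 were chosen on, so their nearness is not independent of the choice.

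The start regions of Pdlim3, Phactr1 and Capn6 are shown because these 3 genes had the same order of levels over the groups. Each runs from 250 bases before to 50 bases after a gene start of RefSeq (GRCm38.p6); RefSeq gave 12 such windows for the 9 genes. Capitals mark MCAT elements, searched as GGAATG and its complement CATTCC, which in muscle genes are known as sites of TEAD factors. The windows lie at chr8:45885237-45885536 (Pdlim3, plus strand), chr13:42680549-42680848 (Phactr1, plus strand, the first of its 3 windows) and chrX:143827363-143827662 (Capn6, minus strand).
Pdlim3: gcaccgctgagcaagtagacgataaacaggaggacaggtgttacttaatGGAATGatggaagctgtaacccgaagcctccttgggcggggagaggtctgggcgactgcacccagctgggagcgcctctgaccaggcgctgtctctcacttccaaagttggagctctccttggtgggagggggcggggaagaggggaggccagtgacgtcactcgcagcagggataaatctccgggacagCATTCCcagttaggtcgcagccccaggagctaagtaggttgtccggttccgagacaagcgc
Phactr1: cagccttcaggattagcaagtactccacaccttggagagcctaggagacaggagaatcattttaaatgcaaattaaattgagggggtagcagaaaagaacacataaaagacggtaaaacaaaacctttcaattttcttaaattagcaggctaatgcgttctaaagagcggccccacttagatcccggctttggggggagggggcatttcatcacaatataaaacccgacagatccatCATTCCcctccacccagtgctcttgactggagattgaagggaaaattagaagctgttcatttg
Capn6: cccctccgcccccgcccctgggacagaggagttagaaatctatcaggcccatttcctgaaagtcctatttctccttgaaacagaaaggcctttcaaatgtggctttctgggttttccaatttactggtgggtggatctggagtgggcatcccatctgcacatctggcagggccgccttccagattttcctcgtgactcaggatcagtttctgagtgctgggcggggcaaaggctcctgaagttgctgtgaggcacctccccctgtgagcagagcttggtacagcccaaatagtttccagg

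The MCAT letters stood 201 and 11 bases before the Pdlim3 start and 13 bases before this Phactr1 start, and they were not in the Capn6 window. Windows 2 and 3 of Phactr1 did not hold them either, and which start these cells use was not tested. Outside these 3 genes, they were found in the Tpm1 window, 56 bases before its start. Of 32851 promoter windows of the same length, 4817 (14.7%) held them, and the motif was picked after the sequences were seen. The CArG box, the site of serum response factor, searched on both strands, was in the Cnn2 window only among the 12, and in 535 (1.63%) of all windows.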

How the data were processed

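Poly(A) RNA of 12 libraries (6 groups of 2) had been sequenced from stranded libraries, per the labels' protocols. The deposited inclusion table gives the percent of transcripts with each exon, splice site or retained intron per library, on mm9, in the layout of vast-tools; the deposited splicing table gives the authors' differences in percentage points for 2175 events. The deposited expression table gives the authors' RPKM per group with log2 fold changes, p-values and FDR values; Salmon 0.14.1 and edgeR are named in the submitters' processing notes. Read numbers are not in these files, so no counting error can be given.

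Percentages of events with values in 12 of 12 libraries and a mean of 2% to 98% were fitted with limma 3.58.1 (R 4.3.3, variance trend, robust) with a term per group, and p-values were adjusted over all 28980 events (Benjamini-Hochberg). The first of the alternative splice sites of an event was left out (37194 entries). The fit was also run on simulated percentages with independent noise in each library. The replicate differences of the real data were correlated between groups, so nothing about these samples is read from that run. The authors' FDR was recomputed from their p-values and differed by at most 0.000554. The replicates are labelled biological, but wells were pooled, and p-values measure the spread between these samples. Members, lists and motifs were chosen with earlier results of these data known. Named were all 9 genes, every tested tropomyosin event, the called or widest event of the other members, the 3 nearest genes by pattern for 4 members, and called genes of the actin list. Members matched by symbol, and Mrtfa and Mrtfb stood for 2 older symbols of the list.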

Additional observations from a re-analysis of the deposited data

How the results depend on the processing

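Of the 13 tested events, 2 were called in knockdown against control (Tpm1 exons 6a and 6b). Keeping events of any mean percentage, except those constant over all libraries, put 91 member events into the test and gave a count of 1. Over all libraries left out in turn, the difference of exon 6a stayed between 19.3 and 25.4 points. Without Sap_pEx3 control replicate 1 or Sap_mEx3 control replicate 1, exon 6a was no longer called. Over all events the 430 calls became 126 with no filter, 716 at 10 points, and 170 without either of those controls; they ranged from 170 to 594 over the 12 libraries left out. For the other 6 contrasts the members' count stayed at 0 under every alternative run. The labels do not say that a replicate number marks a shared batch. The differences between replicates 1 and 2 correlated positively between all groups, at 0.0417 to 0.310. A replicate block gave 524 calls over all events, with the members' count at 2 in knockdown against control and 0 in the others. Retention of the 1496-nt Tpm1 intron in rescue against knockdown of the Sap_pEx3 line was -6.38 points, ranged from -16.3 to 3.52 points over the libraries left out and turned positive without Sap_pEx3 rescue replicate 1; in the Sap_mEx3 line it ranged from -42.8 to -23.4 points. For expression, the count of called members in the 4 rescue comparisons moved from 2 to 3 in rescue against control of the Sap_mEx3 line at an FDR under 0.1 (Phactr1). At that FDR, called genes of the actin list were 5 and 4 in knockdown against control (Sap_mEx3, Sap_pEx3 line), 3 in rescue against control of the Sap_pEx3 line and 5 in rescue between the lines. Of all 21541 genes tested, 758 and 1162, 690 and 964 were called in the same comparisons. Benjamini-Hochberg adjustment over genes of at least 1 RPKM left the members' counts in rescue comparisons as they were, and moved the count between the controls of the lines from 1 to 2 (Actn1, lower in the Sap_pEx3 line), as did an FDR under 0.1.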
